A study of Schizosaccharomyces pombe with 12 samples.

Results

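The loci described here make small nucleolar RNAs (snoRNAs) and small nuclear RNAs (snRNAs) of the fission yeast *Schizosaccharomyces pombe*. They are all rows of the count table whose systematic ID begins with SPSNORNA. or SPSNRNA., which gave 60 of the 6986 loci listed. The choice used the IDs and no measured value. Counts came from poly(A)+ RNA of 4 strains of mating type h+, each grown in rich YES medium at 30°C to log phase: wild-type, a *ppn1*Δ and a *swd22*Δ strain that carry the HygMX marker in place of the gene, and a *dis2*Δ strain that carries NatMX. Each strain had 3 biological replicates, 12 libraries in all, and each mutant was 1 strain with 1 gene deleted. Ppn1, Swd22 and the protein phosphatase Dis2 form the DPS module of the cleavage and polyadenylation factor (CPF), the complex that cuts and polyadenylates RNA polymerase II transcripts, and the comparisons ask how the loss of each subunit changes the poly(A)+ RNA at each locus.

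SnoRNAs work as guides in ribonucleoproteins of the nucleolus. Box C/D snoRNAs direct 2′-O-methylation and box H/ACA snoRNAs direct pseudouridylation of ribosomal RNA, while a few, among them U3, U14 and U17/snR30, serve in the cleavage of the pre-ribosomal RNA. The snRNAs U1, U2, U4, U5 and U6 form the core of the spliceosome. The mature RNAs carry no poly(A) tail, whereas precursors and transcripts that run through a locus can carry one. Oligo(dT)-selected libraries are therefore not a measure of the mature RNA level, and the counts given below are those of poly(A)-selected RNA that mapped to the locus. Whether RNA without a tail passed the selection and added to these counts was not tested.

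Of the 60 loci, 43 had at least 30 raw counts summed over the 12 libraries and 17 fell below that minimum, 10 of them with 0 counts in every library. The test used below took 40 loci, since snR40, snR96 and the U4 gene snu4 were over the minimum but too low in single libraries to be tested. By class there were 21 H/ACA loci, of which 16 had at least 30 counts and 15 were tested. This class holds the 19 loci annotated as box H/ACA, snR30, which is annotated as U17, and sno16, whose class the annotation does not give. The 32 other short snoRNA loci are called C/D-type here, although the annotation used here names the class for 1 of them only. Of these, 20 had at least 30 counts and 19 were tested. The class of U3 had 2 loci, snu3 and snu32, both tested, and the spliceosomal snRNAs had 5, of which 4 were tested.

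Whether a locus had any counts went with its place in the annotation. All 8 members that lie in an exon of another listed locus on the same strand were at 0: snoZ3, snoZ4, snoZ5, snoZ7 and snoZ8 in SPNCRNA.659, snoZ30 in SPNCRNA.1483, snoR68 in SPNCRNA.1650 and snR97 in SPNCRNA.617. None of the 10 members in introns was at 0, and 2 of the 42 members outside other loci of their strand were, sno16 and snR46. The wild-type mean of the host SPNCRNA.659 was 34.2 normalized counts and that of SPNCRNA.617 was 188, so that reads were assigned to these hosts. Counting programs can leave out reads that cover more than 1 locus. The mode used for the counting is not given in the sources used here, and the part of this setting in the zeros was not tested.

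**Figure D1:**
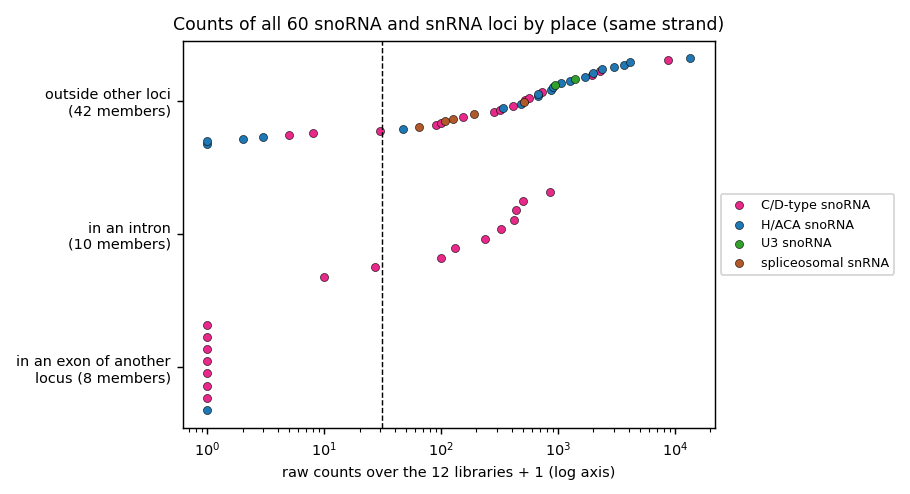
Each point is 1 of the 60 loci, placed by its raw counts summed over the 12 libraries plus 1 (log axis) and by its place relative to other loci on the same strand; the dashed line is the minimum of 30 counts and colors mark the class. All 8 loci in exons of another locus are at 0, and the most abundant locus, snR30, had 13519 counts.

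The sequences below are those of the loci on which the comparisons turn, from the RefSeq genome of build ASM294v3, read 5′ to 3′ on the annotated strand. Capitals mark the letters TGATGA of box C within the first 20 bases and the last CTGA, the letters of box D, within the last 20 bases of the C/D-type RNAs, and ACA within the last 8 bases of the H/ACA RNAs. The first 4 lie in introns (snoR39b at chrII:1791743-1791820, snoR54 at chrII:1707601-1707681, snoR47 at chrII:3654333-3654416 and snoR38 at chrI:5144133-5144206). The last 4 lie outside introns (snR51b at chrI:1200646-1200729, sno12 at chrIII:583416-583605, snR36 at chrII:1957286-1957449 and snR98 at chrI:2330437-2330647). The loci snoR39b, snoR47, snR36 and snR98 are on the minus strand and the other 4 on the plus strand.
snoR39b: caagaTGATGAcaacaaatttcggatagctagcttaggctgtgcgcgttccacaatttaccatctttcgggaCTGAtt
snoR54: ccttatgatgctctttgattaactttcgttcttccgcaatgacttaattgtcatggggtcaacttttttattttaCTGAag
snoR47: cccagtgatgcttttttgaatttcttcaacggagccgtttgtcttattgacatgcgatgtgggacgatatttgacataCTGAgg
snoR38: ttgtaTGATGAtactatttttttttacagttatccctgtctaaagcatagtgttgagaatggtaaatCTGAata
snR51b: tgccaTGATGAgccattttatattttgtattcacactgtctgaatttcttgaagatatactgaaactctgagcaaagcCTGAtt
sno12: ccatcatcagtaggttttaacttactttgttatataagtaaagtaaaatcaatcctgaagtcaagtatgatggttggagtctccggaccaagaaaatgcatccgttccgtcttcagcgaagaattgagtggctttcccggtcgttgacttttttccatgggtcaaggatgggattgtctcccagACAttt
snR36: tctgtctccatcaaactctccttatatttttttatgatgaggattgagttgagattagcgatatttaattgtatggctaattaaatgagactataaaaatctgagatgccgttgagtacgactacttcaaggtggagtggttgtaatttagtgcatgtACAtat
snR98: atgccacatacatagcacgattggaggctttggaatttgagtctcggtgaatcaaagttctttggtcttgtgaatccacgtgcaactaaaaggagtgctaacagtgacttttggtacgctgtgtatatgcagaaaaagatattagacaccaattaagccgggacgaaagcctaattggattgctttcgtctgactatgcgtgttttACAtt

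The box letters followed the classes. On the annotated strand, TGATGA stood in the first 20 bases of 18 of the 32 C/D-type RNAs (56.2%), of 0 of 21 H/ACA RNAs and of 8 of 1380 long non-coding RNA loci of the table (0.58%). CTGA stood in the last 20 bases of 29 C/D-type RNAs (90.6%), 2 H/ACA RNAs and 58 of the long non-coding loci (4.2%). ACA stood in the last 8 bases of 15 H/ACA RNAs (71.4%), 3 C/D-type RNAs and 145 of the long non-coding loci (10.5%). In snR5, snR10 and snR96 the letters ACA were found only at the end of the reverse complement of the annotated strand. These 3 loci had 2, 1 and 46 counts over the 12 libraries, among the lowest of their class.

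For the U3 gene snu3 the annotated interval and the sequence did not coincide. The sequence of snu32, the other U3 gene, matched the genome at chrI:987692-987947 on the minus strand with 91.4% identity over 257 aligned columns, while the ASM294v3 entry of snu3 spans chrI:987570-987825. Thus 122 bases of the annotated interval lay downstream of the match and 122 bases of the match lay outside it. The interval used for the counting was that of ASM294v2, which was not compared. Of the 51-base words of snu32, 80.5% occurred once in the genome, and for every other locus as long as 51 bases all did, so reads that snu32 shares with another copy make its counts less certain.

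In wild-type cells the levels spanned a wide range. Per kilobase of annotated RNA, normalized counts (scaled with TMM factors to a common library of 20838181 counts) were 6980 ± 642 (SD, n = 3) at snoU14, which serves in the processing of 18S ribosomal RNA. The next were sno52 with 2410 ± 278, snR30 with 2320 ± 216, snoZ16 with 1960 ± 320 and snR101 with 1550 ± 134 normalized counts per kilobase (SD, n = 3). The means of sno52 and snR30 were closer to each other than their SDs. The 5 spliceosomal genes had 51.1 ± 18.3 at snu4 to 267 ± 11.7 at snu2 normalized counts per kilobase (SD, n = 3). All but snu2 were near the lower end, and the U6 gene snu6 varied most among the 5, at 93.4 ± 107.

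Summed over the 60 loci, the members took 59041 counts, 0.0236% of all counts, and snR30 alone held 22.9% of these and snoU14 another 14.7%. The share of a library that fell on the members, in CPM (raw counts scaled to a common library total), was 208, 200 and 181 in the wild-type replicates. It was 244, 259 and 252 CPM in *ppn1*Δ, 236, 200 and 217 CPM in the *swd22*Δ strain and 262, 259 and 322 CPM in *dis2*Δ. Every *ppn1*Δ and *dis2*Δ library lay above every wild-type library, and the *swd22*Δ libraries overlapped with wild-type. The difference lay mostly in the H/ACA loci, which went from 107 ± 5.69 (SD, n = 3) CPM in wild-type to 149 ± 6.66 in *ppn1*Δ, 133 ± 9.85 in the *swd22*Δ strain and 197 ± 22.3 in *dis2*Δ, while the C/D-type loci took 77.6 ± 7.63 in wild-type and 65.5 ± 5.8 in *dis2*Δ. Much of the *dis2*Δ rise was at snR30, itself an H/ACA locus. Without it all members took 160 ± 11.7 CPM in wild-type and 196 ± 24.8 in *dis2*Δ. In *ppn1*Δ they then took 199 ± 6.93 and in the *swd22*Δ strain 173 ± 13.6. These sums are a description and were not tested.

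**Figure D2:**
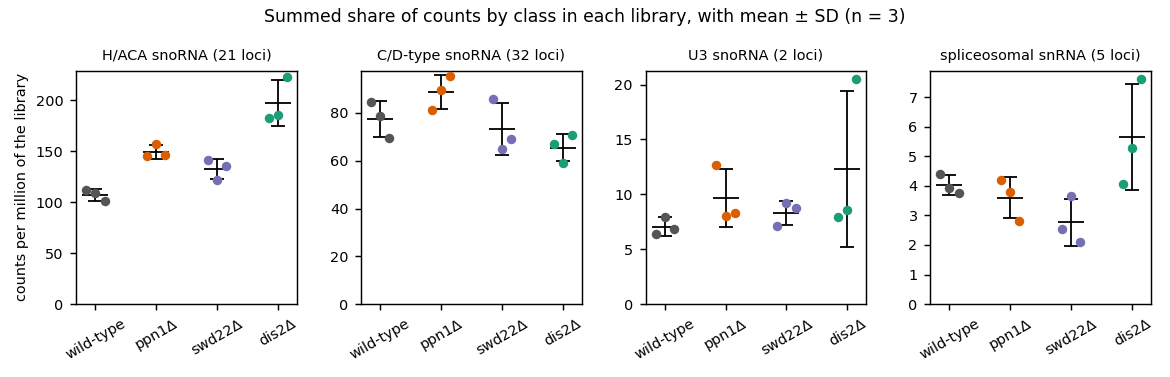
CPM of the library that fell on each class of loci (points: libraries; bars: mean ± SD, n = 3) in the 4 strains. The H/ACA share lies above wild-type in every mutant library, and the third *dis2*Δ library is apart in the U3 panel, at 20.5 against 7.94 and 8.54 in the other two.

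Libraries held 17616688 to 23435936 counts, and the deleted genes kept 21.3% (*ppn1*), 1.08% (*swd22*) and 6.62% (*dis2*) of their wild-type normalized count in the strain without them. The paper reports that the coding sequence deleted in each mutant had no reads. The counts here are over the annotated exons, and where in the gene the remaining reads lie was not examined. One library stood apart for the members. Replicate 3 of *dis2*Δ was the highest of its strain at 30 of the 40 tested loci, including all 6 tested U3 and spliceosomal loci. Results of *dis2*Δ are therefore also given without it where they differ.

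At each locus the mutants were compared with wild-type by the quasi-likelihood test of edgeR, with p-values adjusted after Benjamini and Hochberg for all 6110 loci that entered it, and a locus was called changed at an adjusted p at or below 0.05. Calls in either direction made up 49.6% of all loci in *ppn1*Δ, 39.8% for *swd22*Δ and 41.3% for *dis2*Δ. In *ppn1*Δ, 13 of the 40 tested members rose and 4 fell, where 24.5% of all loci tested were called higher and 25.2% lower. In *swd22*Δ, 12 rose and 4 fell (19.3% and 20.5% of all loci), and in *dis2*Δ, 13 rose and 7 fell (19.5% and 21.8% of all loci). Without replicate 3 of *dis2*Δ these counts were 10 and 7. The share of members called in either direction (17, 16 and 20 of 40) was thus near that of all loci. At least 2-fold rises were called at 10 members in *ppn1*Δ (4.29% of all loci), 9 in *swd22*Δ (3.52%) and 7 in *dis2*Δ (3.52%), and at least 2-fold falls at 1 (2.77%), 1 (2.95%) and 4 members (2.14%). The median log2 fold change over the 40 members was 0.28, 0.14 and 0.42 (0.23 in *dis2*Δ without replicate 3), and over all loci tested it was within 0.01 of 0 in every mutant.

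Across the 3 mutants, 27 of the 40 members were called in at least 1 (66.1% of all loci tested), and none was called in opposite directions in different mutants. Called higher in all 3 were 7 members, snoR47 and the H/ACA loci sno12, snR3, snR36, snR91, snR94 and snR98 (10.3% of all loci tested). Called lower in all 3 were snR51b and snR101 (11.9% of all loci tested). All 3 comparisons share the wild-type libraries, so a low or high wild-type value enters each of them.

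**Figure D3:**
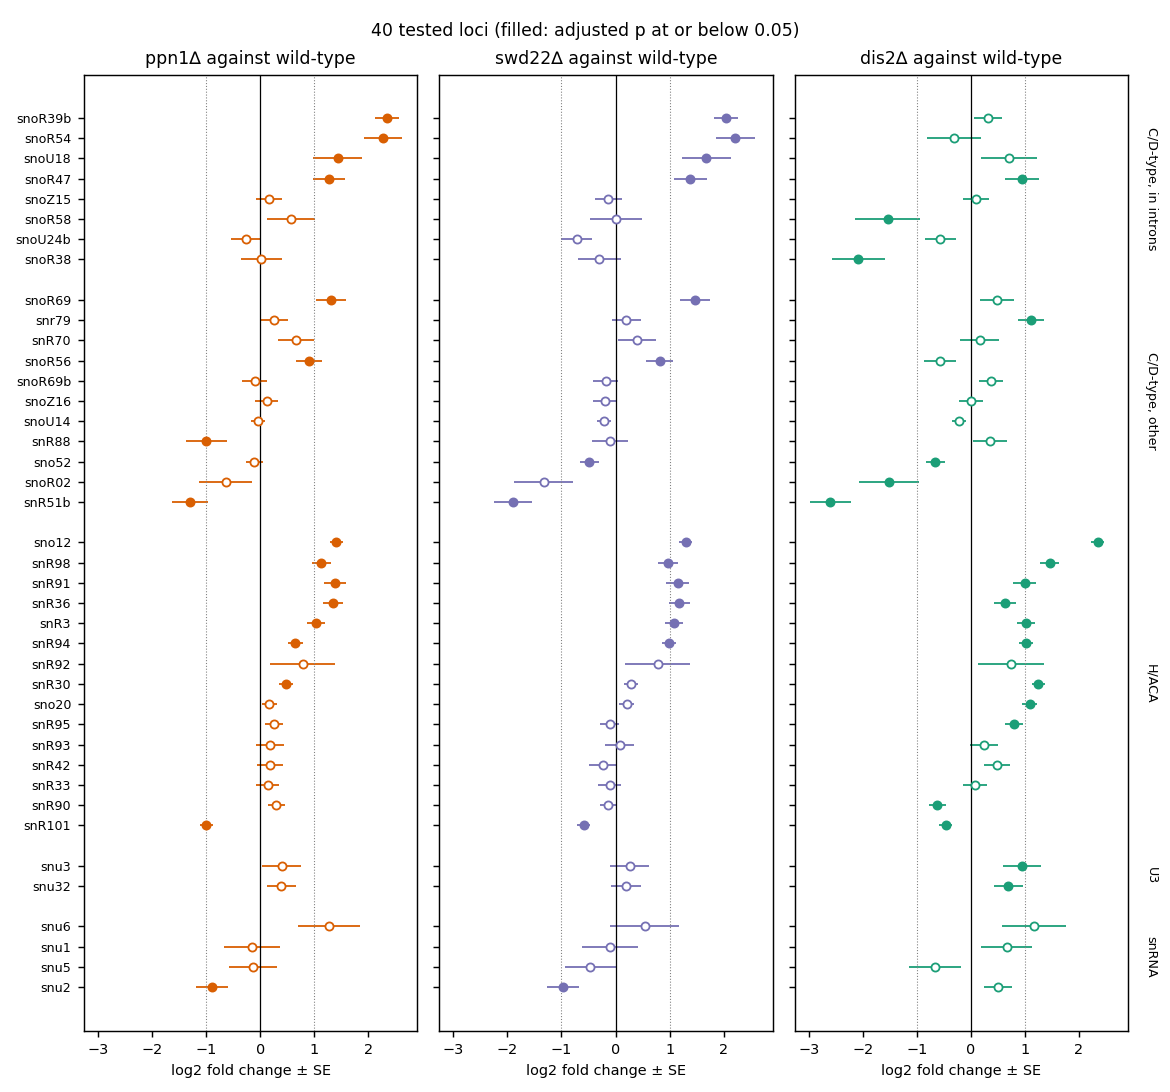
Log2 fold change ± SE against wild-type of the 40 tested loci in each mutant, grouped by class; filled points are called at an adjusted p at or below 0.05 (edgeR) and dotted lines mark 2-fold. In both *ppn1*Δ and the *swd22*Δ strain 4 loci in introns are more than 2-fold above wild-type, and in *dis2*Δ 9 of the 15 H/ACA loci rise.

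The largest rises in *ppn1*Δ and *swd22*Δ were at C/D-type snoRNAs encoded in introns. Such RNAs are released from the intron after splicing of the host transcript and trimmed by exonucleases. Of the 8 tested, 4 rose and 0 fell in *ppn1*Δ, and the same counts held in *swd22*Δ, whereas in *dis2*Δ 1 rose and 2 fell. Over all loci tested, 24.5%, 19.3% and 19.5% were called higher in the 3 mutants in this order, and 25.2%, 20.5% and 21.8% lower. The median log2 fold change over the 8 loci was 0.92 in *ppn1*Δ, 0.69 for *swd22*Δ and -0.10 for *dis2*Δ (-0.28 without its replicate 3). For the 11 tested C/D-type loci outside introns it was -0.05, -0.18 and 0.00 (-0.22 without that library).

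SnoR39b, in an intron of the ribosomal protein gene *rpl701*, had 25.4, 27.8 and 19.6 normalized counts in wild-type. It had 143, 142 and 89.8 in *ppn1*Δ, 107, 102 and 92.0 in the *swd22*Δ strain and 29.9, 26.5 and 34.5 in *dis2*Δ. All 6 libraries of *ppn1*Δ and *swd22*Δ were more than 3 times as high as any wild-type library, and *dis2*Δ overlapped with wild-type. The log2 fold change was 2.34 (SE 0.22, edgeR adjusted p = 2.5e-07) in *ppn1*Δ, 2.04 (SE 0.22, adjusted p = 2.1e-06) in *swd22*Δ and 0.31 (SE 0.26, adjusted p = 0.36) in *dis2*Δ. The host *rpl701* differed by -0.08, -0.01 and 0.07 on the log2 scale and was not called in any mutant.

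SnoR54, in an intron of *gua1*, the gene of IMP dehydrogenase in guanine nucleotide synthesis, had the same pattern at a lower level. Its normalized counts were 5.09, 7.66 and 7.62 in wild-type cells, 32, 39.6 and 29.1 in *ppn1*Δ, 47.1, 27.6 and 20.8 in the *swd22*Δ strain and 4.67, 5.52 and 6.27 in *dis2*Δ. The lowest *ppn1*Δ or *swd22*Δ library was above the highest of the other strains. The log2 fold changes were 2.27 (SE 0.35, edgeR adjusted p = 5.5e-05), 2.21 (SE 0.36, adjusted p = 0.00011) and -0.31 (SE 0.50, adjusted p = 0.66), while *gua1* itself fell by 0.24 on the log2 scale in *ppn1*Δ (adjusted p = 0.02 by edgeR) and was not called in the other mutants. The call of *gua1* was lost in 3 settings, among them without wild-type replicate 1 or *ppn1*Δ replicate 3 (adjusted p up to 0.13). Per 1000 counts on the exons of *gua1*, snoR54 had 0.24 ± 0.06 (SD, n = 3) in wild-type, 1.35 ± 0.11 in *ppn1*Δ, 1.22 ± 0.56 in the *swd22*Δ strain and 0.21 ± 0.04 in *dis2*Δ.

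SnoR47, in an intron of the kinetochore gene *fta3*, rose in all 3 mutants. Its normalized counts were 22.4, 16.3 and 13.1 in wild-type cells, 31.1, 56.6 and 39.9 in *ppn1*Δ, 34.8, 60.8 and 39.4 in the *swd22*Δ strain and 30.9, 39.7 and 30.3 in *dis2*Δ. All 9 mutant libraries were above the 3 of wild-type. Log2 fold changes were 1.27, 1.38 and 0.95 (edgeR adjusted p = 0.0023, 0.0015 and 0.023), and *fta3* fell by 0.22 in *swd22*Δ and by 0.21 in *dis2*Δ, calls that were lost in 4 and 5 settings (adjusted p up to 0.096). The *dis2*Δ call was lost when 1 of 3 libraries was left out (wild-type replicate 2 or 3 or *dis2*Δ replicate 2; adjusted p up to 0.09).

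SnoR38, in an intron of SPAC29A4.02c, went the other way and only the *dis2*Δ change was called. It had 39.7, 31.6 and 33.7 normalized counts in wild-type cells, 18.3, 58.9 and 32.4 in *ppn1*Δ, 31.7, 38.0 and 14.2 in the *swd22*Δ strain and 9.35, 2.21 and 12.5 in *dis2*Δ. The *dis2*Δ libraries were below all others, with a log2 fold change of -2.08 (SE 0.50, edgeR adjusted p = 0.003). Its host fell by 0.52, 0.25 and 0.34 on the log2 scale (*ppn1*Δ, *swd22*Δ and *dis2*Δ in this order), of which the second was not called without wild-type replicate 1 or *swd22*Δ replicate 3 (edgeR adjusted p up to 0.16).

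Of the other 4 tested loci in introns, 2 were called, snoU18 in *ero11* and snoR58 in *ade4*. Both fall outside the rule for named loci and were added after their values were seen, so that the group is described whole. On the log2 scale snoU18 rose by 1.43 with *ppn1*Δ and by 1.68 with *swd22*Δ, from 2.87 to 5.09 normalized counts in wild-type, and snoR58 fell by 1.54 in *dis2*Δ. SnoZ15, in *pfd1*, and snoU24b, in *cpc2*, were not called in any mutant. At this depth the low loci were measured with large errors (SE of the log2 fold change 0.45 to 0.60 at snoU18 and snoR58 where called). The *ppn1*Δ call of snoU18 was lost in 3 settings (DESeq2, without wild-type replicate 2 or *ppn1*Δ replicate 3; adjusted p up to 0.13) and the *dis2*Δ call of snoR58 in 9, among them DESeq2 and 6 with 1 library left out (wild-type 2, *ppn1*Δ 2, *swd22*Δ 1 or 3, *dis2*Δ 1 or 2; adjusted p up to 0.27).

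**Figure D4:**
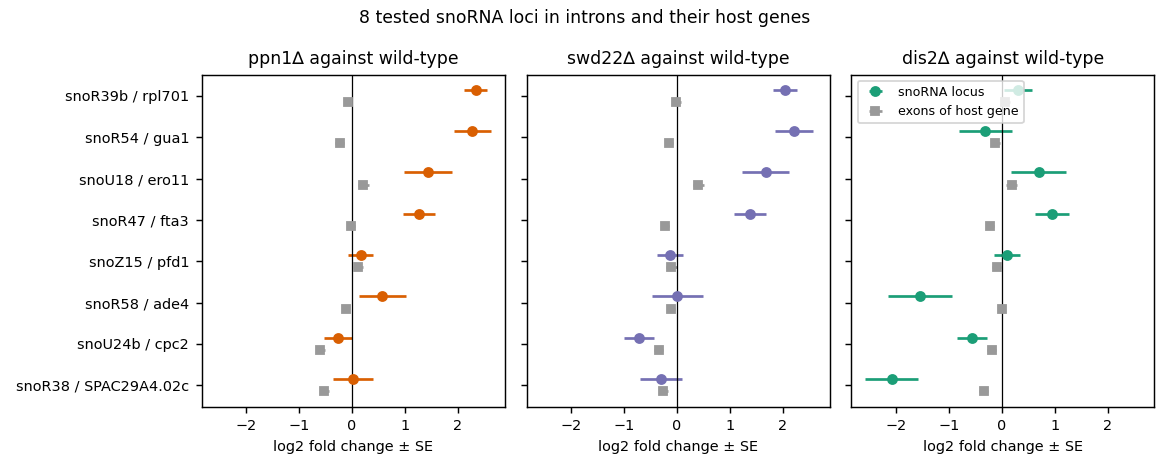
Log2 fold change ± SE against wild-type of the 8 tested snoRNA loci in introns (circles) and of the exons of their host genes (grey squares) in each mutant. SnoR39b and snoR54 rise by 2.04 to 2.34 in *ppn1*Δ and *swd22*Δ while their hosts stay between -0.24 and -0.01.

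The H/ACA loci were called higher in more cases in *dis2*Δ. Of 15 tested, 9 rose and 2 fell in *dis2*Δ with a median log2 fold change of 0.80, against 7 and 1 in *ppn1*Δ (median 0.48) and 6 and 1 in *swd22*Δ (median 0.29). Without replicate 3 of *dis2*Δ, 8 rose and 2 fell (median 0.74). Of all loci tested, 19.5%, 24.5% and 19.3% were called higher in these strains. Beside them, the 1046 tested loci with SPNCRNA. IDs, the long non-coding RNAs of the table, had 24.7%, 31.4% and 25.4% called higher and medians of 0.06, 0.11 and 0.02.

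Sno12, an H/ACA snoRNA also annotated as snR99, had the largest rise of the class. Its normalized counts were 130, 128 and 108 in wild-type cells, 328, 327 and 319 in *ppn1*Δ, 284, 294 and 324 in the *swd22*Δ strain and 552, 596 and 720 in *dis2*Δ. The *dis2*Δ libraries were above those of *ppn1*Δ and *swd22*Δ, and these above wild-type, with no overlap between the 3 levels. The fold changes were 2.65 (edgeR adjusted p = 1.1e-07), 2.46 (adjusted p = 4.7e-07) and 5.08 (adjusted p = 1.9e-10), and the difference between *dis2*Δ and *ppn1*Δ was itself called (log2 0.94, SE 0.11, adjusted p = 5.9e-06).

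SnR30, the RNA of the U17 type that serves in early cleavages of the pre-ribosomal RNA, was the most abundant member by raw counts. It had 836, 702 and 734 normalized counts in wild-type cells, 1087, 1107 and 969 in *ppn1*Δ, 982, 700 and 1095 in the *swd22*Δ strain and 1645, 1734 and 2019 in *dis2*Δ. All *ppn1*Δ libraries lay above wild-type, the *swd22*Δ libraries overlapped with it, and *dis2*Δ was highest in every library. The log2 fold change was 0.48 (SE 0.13, edgeR adjusted p = 0.0051), 0.29 (SE 0.13, adjusted p = 0.082) and 1.25 (SE 0.13, adjusted p = 7.4e-07). Without replicate 2 of *swd22*Δ, its lowest library, the *swd22*Δ change was 0.46 and was called (adjusted p = 0.0017 by edgeR).

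Another 2 H/ACA loci were called higher in *dis2*Δ only. Sno20 had 144, 120 and 107 normalized counts in wild-type and 280, 231 and 278 in *dis2*Δ, a log2 fold change of 1.09 (SE 0.14, edgeR adjusted p = 9.4e-06), while its values in the other mutants, 131 to 156, overlapped with wild-type. SnR95 rose by 0.80 in *dis2*Δ (SE 0.17, edgeR adjusted p = 0.0012). The difference of *dis2*Δ from *ppn1*Δ and from *swd22*Δ was called at both loci, with log2 differences of 0.92 and 0.88 at sno20 and 0.54 and 0.90 at snR95. At snR95 the difference from *ppn1*Δ was not called without *ppn1*Δ replicate 3 or without replicate 2 or 3 of *dis2*Δ (edgeR adjusted p up to 0.067).

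The 5 H/ACA loci snR3, snR36, snR91, snR94 and snR98 rose in every mutant. SnR3 rose by 1.03, 1.08 and 1.02 on the log2 scale (mutants in the same order), and snR98 by 1.13, 0.97 and 1.46. At snR36 the order of the mutants differed from that at sno12. It had 33.6, 38.3 and 44.6 normalized counts in wild-type cells, 90.6, 109 and 97.3 in *ppn1*Δ, 89.0, 91.3 and 83.2 in the *swd22*Δ strain and 57.0, 47.4 and 75.2 in *dis2*Δ. Each *dis2*Δ library was between the wild-type and the other mutant libraries, and the log2 difference of *dis2*Δ from *ppn1*Δ was -0.72 (SE 0.18, edgeR adjusted p = 0.0059). The rise of snR36 in *dis2*Δ (0.63) was not called without wild-type replicate 1 or *dis2*Δ replicate 3 (adjusted p up to 0.12 by edgeR). SnR91 rose by 1.38, 1.15 and 0.99 and snR94 by 0.65, 0.99 and 1.01.

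SnR101 and snR90 were the H/ACA loci that fell. SnR101 had 381, 447 and 442 normalized counts in wild-type cells, 247, 187 and 202 in *ppn1*Δ, 296, 246 and 304 in the *swd22*Δ strain and 332, 301 and 287 in *dis2*Δ. All mutant libraries were below wild-type, and the log2 fold changes were -0.99, -0.59 and -0.46 (edgeR adjusted p = 5.5e-06, 0.00096 and 0.0054). SnR90 had 275, 243 and 264 normalized counts in wild-type and 160, 168 and 182 in *dis2*Δ (log2 fold change -0.62, SE 0.16, edgeR adjusted p = 0.0045). It was not called in *ppn1*Δ or *swd22*Δ, where its values of 196 to 362 overlapped with wild-type, although the *ppn1*Δ value of 0.30 was called as a rise without *ppn1*Δ replicate 1 or *swd22*Δ replicate 1 (adjusted p = 0.038 and 0.048 by edgeR).

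SnR51b, the last snoRNA of a cluster with snR41 and snR70 on chromosome I, had the largest fall of the 40 tested members in each of the 3 mutants. Its normalized counts were 123, 87.1 and 94.7 in wild-type cells, 23.8, 63.4 and 39.1 in *ppn1*Δ, 45.0, 17.1 and 19.7 in the *swd22*Δ strain and 16.8, 7.72 and 25.1 in *dis2*Δ. No mutant library reached the lowest wild-type value. The fold decreases were 2.46 (edgeR adjusted p = 0.0036), 3.72 (adjusted p = 4e-04) and 6.05 (adjusted p = 4.7e-05). Its upstream neighbor snR70, which ends 144 bases before it on the same strand, had log2 fold changes of 0.66, 0.40 and 0.16 and was not called, and snR41 had 29 counts in all.

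**Figure D5:**
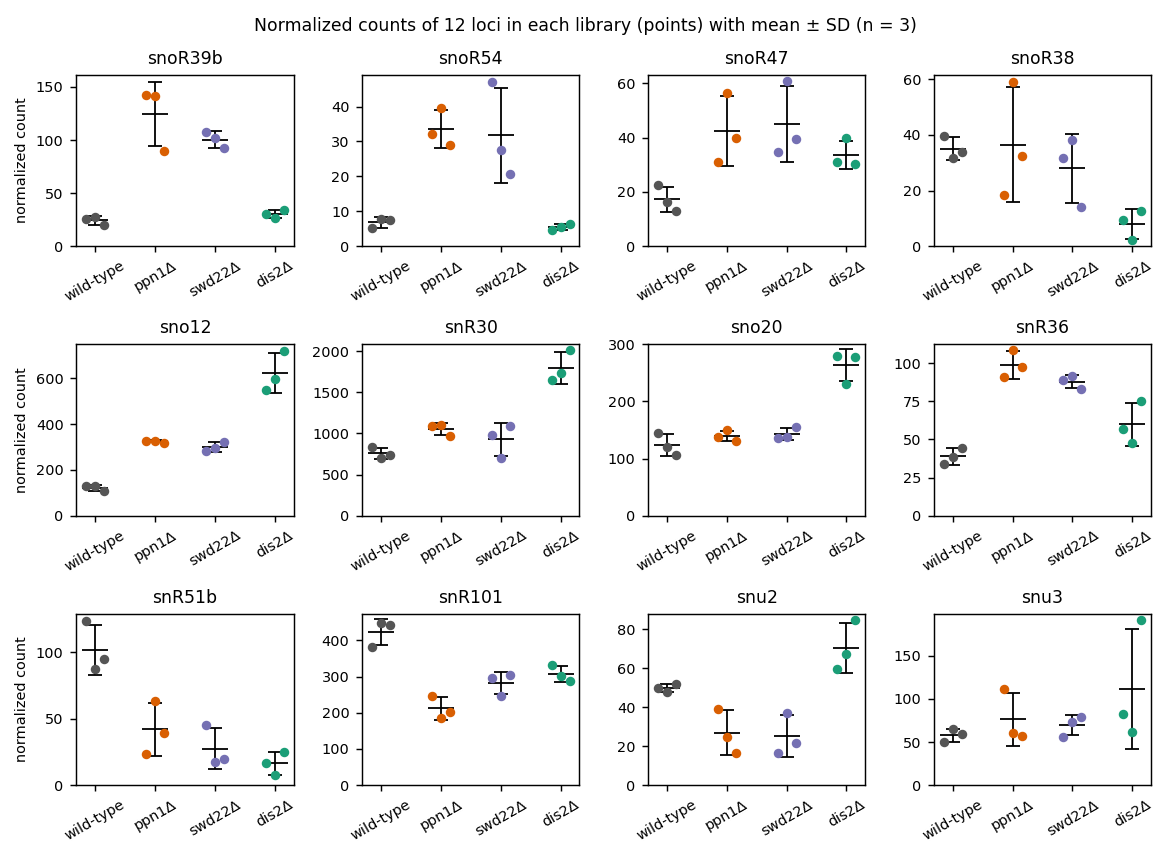
Normalized counts of 12 loci in each library (points) with mean ± SD (n = 3) by strain. SnoR39b and snoR54 are high in *ppn1*Δ and *swd22*Δ and at the wild-type level in *dis2*Δ, sno12, snR30 and sno20 are highest in *dis2*Δ, and snR51b and snR101 are below wild-type in all mutant libraries.

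Among C/D-type loci outside introns, snoR69 and snoR56 rose in *ppn1*Δ and *swd22*Δ. SnoR69 had 16.3, 12.4 and 12 normalized counts in wild-type cells, 29.3, 39.6 and 33.3 in *ppn1*Δ, 37.9, 46.6 and 28.5 in the *swd22*Δ strain and 23.4, 14.3 and 18.8 in *dis2*Δ. The first 2 mutants did not overlap with wild-type and *dis2*Δ did (fold 2.48, 2.77 and 1.40, edgeR adjusted p = 0.00098, 0.00043 and 0.23). SnoR56 rose by 0.90 in *ppn1*Δ and by 0.82 in *swd22*Δ on the log2 scale and had -0.57 in *dis2*Δ, which was not called against wild-type (edgeR adjusted p = 0.12). Without wild-type replicate 3 the *swd22*Δ call of snoR56 was lost (adjusted p = 0.073 by edgeR). Its difference between *dis2*Δ and *ppn1*Δ was called (-1.47, adjusted p = 4e-04 by edgeR). Snr79 rose in *dis2*Δ alone among the called changes, from 53.9, 39.2 and 39.2 normalized counts in wild-type to 102, 103 and 81.5, a log2 fold change of 1.11 (SE 0.25, edgeR adjusted p = 0.0017).

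Of the 3 most abundant C/D-type loci, sno52 alone was called. SnoU14 had log2 fold changes of -0.05, -0.21 and -0.23 and snoZ16 0.12, -0.19 and 0.00, none of them called. Sno52 fell by 0.66 in *dis2*Δ (SE 0.17, edgeR adjusted p = 0.0052) and by 0.48 in *swd22*Δ (adjusted p = 0.03 by edgeR), and the second call, where the strains overlapped, was lost in 5 settings, among them those without wild-type replicate 1 or 2 or *swd22*Δ replicate 2 or 3 (adjusted p up to 0.12). Called in 1 mutant each, and outside the rule for named loci, were snR88, 1.99-fold lower in *ppn1*Δ, and snoR02, 2.86-fold lower in *dis2*Δ. Both were added after their values were seen, and neither call was kept in all settings. That of snR88 was lost with DESeq2 and without wild-type replicate 2 or *ppn1*Δ replicate 2 or 3 (adjusted p up to 0.17). That of snoR02 was lost with DESeq2, with the library total as scaling and without replicate 1 or 2 of wild-type or of *dis2*Δ (adjusted p up to 0.14).

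Both U3 genes were called higher in *dis2*Δ only. Snu3 had 49.8, 65.1 and 58.8 normalized counts in wild-type cells, 112, 60 and 56.5 in *ppn1*Δ, 56.3, 73.2 and 78.9 in the *swd22*Δ strain and 82.3, 61.8 and 191 in *dis2*Δ. Snu32 had 88.5, 97.6 and 88.2 in wild-type, then 87.9, 122 and 234 in *dis2*Δ. At both loci replicate 3 of *dis2*Δ was far above the others and *dis2*Δ overlapped with wild-type. The log2 fold changes of 0.94 (edgeR adjusted p = 0.035) and 0.69 (adjusted p = 0.048) became 0.32 (adjusted p = 0.41) and 0.19 (adjusted p = 0.52) without this library. Both calls were also lost without wild-type replicate 1 or 3 (adjusted p up to 0.11 by edgeR), and that of snu32 without wild-type replicate 2 or *swd22*Δ replicate 1 or 3 (adjusted p up to 0.066).

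Of the spliceosomal genes, snu2 (U2, which pairs with the branch site of introns) was called. It had 49.8, 47.9 and 52.2 normalized counts in wild-type cells, 39.4, 24.9 and 16.6 in *ppn1*Δ, 16.4, 37.1 and 21.9 in the *swd22*Δ strain and 59.8, 67.3 and 84.7 in *dis2*Δ. The *ppn1*Δ and *swd22*Δ libraries were below and the *dis2*Δ libraries above all of wild-type. It fell by 0.89 in *ppn1*Δ (SE 0.29, edgeR adjusted p = 0.018) and by 0.97 in *swd22*Δ (SE 0.30, adjusted p = 0.016), and the *dis2*Δ value of 0.50 was not called (adjusted p = 0.14). The fall was not called without *ppn1*Δ replicate 3 (adjusted p = 0.11) or, in *swd22*Δ, without replicate 1 or 3 (adjusted p up to 0.08).

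The other spliceosomal genes were low and no change was called with all libraries. Snu1 (U1, which pairs with the 5′ splice site) had 7.12 to 12.4 normalized counts in wild-type and 4.99 to 23.0 in the mutants. Snu5 (U5, which holds the exons) had 8.71 to 14.2 and 3.31 to 17.0. Snu6 (U6, part of the catalytic core, whose gene is itself interrupted by an intron) had 2.18 to 20.3 in wild-type and 6.54 to 31.4 in the mutants, and its SEs of 0.57 to 0.63 on the log2 scale left changes near 2-fold undetectable. Its first wild-type library, at 20.3 against 3.83 and 2.18 in the other two, set its values: without it the log2 fold changes of 1.27, 0.54 and 1.17 became 2.77, 2.04 and 2.67 and all were called (edgeR adjusted p = 0.0035, 0.042 and 0.0064). Without *dis2*Δ replicate 1 the *ppn1*Δ and *dis2*Δ changes of snu6 (adjusted p = 0.044 and 0.025) and the *dis2*Δ change of snu1 (1.09, adjusted p = 0.048) were called as well. Snu4 (U4, the partner of U6) had 64 counts in the 12 libraries and was not tested.

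Between mutants, *swd22*Δ and *ppn1*Δ differed at 0 of the 40 members by edgeR's adjusted p (6.32% of all loci tested), with 6 at an unadjusted p below 0.05 and 1 called by DESeq2. The smallest edgeR adjusted p was 0.063, for snR101 (log2 difference 0.41, 95% interval 0.12 to 0.70). *dis2*Δ differed from *ppn1*Δ at 19 members (28.7% of all loci), 9 higher and 10 lower in *dis2*Δ (16.1% and 12.6%), and from *swd22*Δ at 15 (18.6%), 8 higher and 7 lower (9.71% and 8.87%). Without replicate 3 of *dis2*Δ the counts were 7 and 10 against *ppn1*Δ and 6 and 7 against *swd22*Δ. The count against *swd22*Δ fell to 9 without replicate 1 or 2 of *swd22*Δ and to 8 without replicate 2 of *dis2*Δ. Of the 15 H/ACA loci 6 were higher and 2 lower in *dis2*Δ than in *ppn1*Δ, and of the 8 loci in introns 0 were higher and 4 lower. Without replicate 3 of *dis2*Δ the first counts were 4 and 3 and the second were the same. SnoR39b was lower in *dis2*Δ by 2.03 on the log2 scale than in *ppn1*Δ (edgeR adjusted p = 1.9e-06) and snoR54 by 2.58 (adjusted p = 5.7e-05), whereas snu2 was higher by 1.39 (adjusted p = 0.0014). These comparisons share libraries with those against wild-type.

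Several named members have a gene on the opposite strand, and the strand setting of the counting is not given in the sources used here, so reads of a member and of its antisense partner may not have been told apart. SnR36 lies opposite *psd1*, which had 2418 normalized counts in wild-type and changed by -0.45, -0.21 and -0.22 where snR36 rose. The last 2 of these calls were lost without wild-type replicate 1, and the *dis2*Δ call also without *dis2*Δ replicate 2 (edgeR adjusted p up to 0.074). Sno52 lies opposite *taf9*, with -0.77, -0.30 and 0.33, and snR90 opposite *not3*, with -0.04, -0.08 and 0.10. Snr79 lies opposite *gpi12*, with 0.06, 0.24 and 0.21, and sno20 opposite SPBC1921.04c, with a mean of 0.66 counts in wild-type. No member that rose had a tested antisense partner called higher in the same mutant. At sno52, which fell, *taf9* was called in every mutant and kept these calls in all settings. Both were called lower in *swd22*Δ (sno52 -0.48, *taf9* -0.30). In *dis2*Δ sno52 was called lower (-0.66) and *taf9* higher (0.33), and in *ppn1*Δ *taf9* alone was called, as lower. Whether reads of *taf9* entered the counts of sno52 was not tested.

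Upstream neighbors on the same strand were also compared, and values are given for some of them. Also called, among others, were SPAC1B3.06c, 360 bases before snR90, in all 3 mutants and *gpt2*, 211 bases before snu1, in *ppn1*Δ and *swd22*Δ. *Mcp60*, 123 bases before sno52, was called in *swd22*Δ, and *pop6* and *skb5*, 331 and 385 bases before snR101 and snR94, in *ppn1*Δ. Of the calls just named, those kept in all settings were SPAC1B3.06c in *ppn1*Δ and *swd22*Δ and *gpt2* in *ppn1*Δ. Neighbors not named there also had such calls, among them SPBC26H8.13c, 852 bases before snu32, in all 3 mutants. SnR91 begins 176 bases after *mpa1*, which had log2 fold changes of 0.19, 0.10 and 0.20 and was not called, while snR91 rose in all mutants. SnR98 begins 172 bases after *neo1*, which had -0.27, -0.09 and -0.21 and was called lower in *ppn1*Δ and *dis2*Δ in all settings. Sno12 begins 126 bases after SPNCRNA.467, which had a mean of 1.00 normalized counts in wild-type and was not tested. Snu6 begins 57 bases after *cwf21*, which rose by 0.38 in *ppn1*Δ, a call lost in 6 settings, 5 of them with 1 library left out (wild-type 1 or 3, *ppn1*Δ 2 or 3, *swd22*Δ 1; edgeR adjusted p up to 0.23). Whether transcripts of these neighbors extend into the members was not tested.

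The protein genes of the same particles changed by less than 2-fold in every mutant. Of 55 genes for snoRNP and snRNP proteins, snoRNP assembly and nuclear RNA 3′ processing, 15 rose and 9 fell in *ppn1*Δ, 9 and 9 in the *swd22*Δ strain and 12 and 15 in *dis2*Δ. These are 27.3% and 16.4%, 16.4% and 16.4%, and 21.8% and 27.3% of the genes, where 24.5% and 25.2%, 19.3% and 20.5%, and 19.5% and 21.8% of all loci were called higher and lower. The medians were 0.05, -0.02 and 0.00. Of the 4 C/D box proteins, *fib1*, the gene of the methyltransferase fibrillarin, fell by 0.52, 0.32 and 0.57 on the log2 scale, the second with a call lost in 5 settings (DESeq2, the library total, wild-type 1 or *swd22*Δ 1 or 3 left out; adjusted p up to 0.3). Of the 4 H/ACA box proteins, 1 fell in *ppn1*Δ and 3 each in *swd22*Δ and *dis2*Δ, with none rising, among them *cbf5*, the gene of the pseudouridine synthase (-0.15, -0.27 and -0.15). The *cbf5* call was lost in 8 settings in *ppn1*Δ and 7 in *dis2*Δ, including the removal of any wild-type library in both and of any *dis2*Δ library in *dis2*Δ (edgeR adjusted p up to 0.26 and 0.13), and in none in *swd22*Δ. The other *dis2*Δ calls, of *nhp2* and *nop10*, were lost in 5 and 4 settings (edgeR adjusted p up to 0.14 and 0.18). In *swd22*Δ that of *nhp2* was lost in 3 (edgeR adjusted p up to 0.083).

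The other lists are short, and 19.3% to 25.2% of all loci were called in each direction in each mutant. *Shq1*, an assembly factor of H/ACA particles, rose by 0.66 in *ppn1*Δ and 0.44 in *swd22*Δ, the latter not called without wild-type replicate 1 or 3 (edgeR adjusted p up to 0.065). In each mutant 3 of the 7 Sm ring genes rose and 1 fell, led by *smd3* (0.47, 0.40 and 0.47) and *smb1* (-0.33, -0.31 and -0.32). The other rises in *swd22*Δ, of *smd2* and *smg1*, each lost the call in 5 settings (edgeR adjusted p up to 0.11 and 0.12). Among the 7 LSm genes, *lsm6* rose by 0.56, 0.53 and 0.68 and *lsm2* fell by 0.70 in *dis2*Δ. Of the 14 genes of snRNP-specific proteins 4 rose and 3 fell in *ppn1*Δ, 2 and 1 in *swd22*Δ, and 4 and 3 in *dis2*Δ, with *snu23* at 0.49 in *ppn1*Δ, *usp103* at 0.51 in *dis2*Δ and *brr2* at -0.35 in *ppn1*Δ. Of the 14 genes for 3′ processing and decay of small RNA precursors, 4 rose and 3 fell in *ppn1*Δ (*cid14* 0.31, *seb1* -0.29), 0 and 1 in *swd22*Δ (*dis3* -0.19) and 0 and 5 in *dis2*Δ (*pac1* -0.25). Among these, the calls of *snu23*, *cid14*, *dis3* in *swd22*Δ and *pac1* in *dis2*Δ were lost in 3, 4, 4 and 1 settings (adjusted p up to 0.11, 0.19, 0.077 and 0.059), each time with wild-type replicate 1 left out among them. *Snu23* and *cid14* also lost the call without wild-type replicate 3 or *ppn1*Δ replicate 3, *cid14* without *ppn1*Δ replicate 2, and *dis3* without wild-type replicate 2 or *swd22*Δ replicate 3.

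The tested members not called in any mutant against wild-type numbered 13. Beside snoU14, snoZ16, snoZ15, snoU24b, snR70 and the snRNA genes snu1, snu5 and snu6, they were snoR69b and the H/ACA loci snR33, snR42, snR92 and snR93. Their log2 fold changes lay between -0.72 and 1.27, with SEs from 0.13 at snoU14 to 0.63 at snu6, and the highest value, that of snu6 in *ppn1*Δ, was 0.84 to 2.77 with 1 library left out. The values of these loci overlapped with wild-type in every mutant except those of snoU14 in *dis2*Δ.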

How the data were processed

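Poly(A)+ RNA of 4 strains with 3 biological replicates each was sequenced by the authors in paired 51-base reads from a strand-specific kit. Per the submitters' processing notes, reads were mapped with HISAT2 2.1.0 and counted with HTSeq 0.10.0 on ASM294v2 exons. The deposited values are raw counts per locus (0 columns left out), and 1 ID with 2 entries was summed. The authors tested with DESeq2 at 2-fold and a mean of 100 counts.

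Members and gene lists were chosen with earlier results of these data known. Counts of all 12 libraries were scaled by TMM, filtered by filterByExpr and tested by quasi-likelihood with edgeR 4.0.16 under R 4.3.3. In simulated data for *ppn1*Δ on 6110 loci, 99 of 102 2-fold and 95 of 95 4-fold changes were recovered, and 9 of 5806 unchanged loci were called. The simulated counts were filtered again, and these numbers leave out the loci that did not pass. The changed loci were drawn from all 6110, of which 5253 had a mean of at least 100 normalized counts in *ppn1*Δ or wild-type. Of the 40 tested members 15 had such a mean, so the recovery does not describe the lower ones. Replicates of a strain were not copies of each other, with chi-square divided by its degrees of freedom at 5.38 to 23.6. The alternatives were DESeq2 1.42.0, other scaling and filters, the 2 strains alone, a replicate block, the study's cutoffs and each library left out.

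Names, positions and sequences come from RefSeq ASM294v3, matched by ID (60 of 60 members), with no conversion of coordinates. Named were the 20 members with the smallest adjusted p, all snRNA loci over 30 counts, the 6 most abundant members in wild-type, up to 2 called genes per list, direction and mutant, and hosts, upstream and antisense loci of named members.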

Additional observations from a re-analysis of the deposited data

How the results depend on the processing

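The study's cutoffs were applied only to the numbers of members that differed, given below, and not to the calls of single loci. Of the 48 called changes of named loci against wild-type, 40 were called in every other alternative that tested them. The remaining 8 lost the call in at least 1: snR36 and snoR47 in *dis2*Δ, sno52 and snoR56 in *swd22*Δ, snu2 in *ppn1*Δ and *swd22*Δ, and snu3 and snu32 in *dis2*Δ. None changed direction. Conversely, 8 changes that were not called with all libraries were called in at least 1 setting: snu6 in each mutant, snu1, snu2 and snoU14 in *dis2*Δ, snR30 in *swd22*Δ and snR90 in *ppn1*Δ. For snu2 and snoU14 this was with the 2 strains alone (adjusted p = 0.038 and 0.039), and for snoU14 also without *swd22*Δ replicate 2. The highest adjusted p that any of them reached was 0.52, for snu32 without *dis2*Δ replicate 3.

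With the study's cutoffs (2-fold and a mean count of 100), the members that differed from wild-type were 5 (*ppn1*Δ), 4 (*swd22*Δ) and 6 (*dis2*Δ), and 1 in *dis2*Δ against *ppn1*Δ and 2 against *swd22*Δ. The 2-fold cutoff alone left 11, 10 and 11 against wild-type and 8 and 6 between these mutants. DESeq2 called 1 member between *swd22*Δ and *ppn1*Δ, of 17 for which it gave an adjusted p. With 1 library left out, the counts against wild-type were 14 to 18, 14 to 17 and 16 to 21, those between *swd22*Δ and *ppn1*Δ 0 to 1, *dis2*Δ and *ppn1*Δ 14 to 19, and *dis2*Δ and *swd22*Δ 8 to 15. The last count was 9 without *swd22*Δ replicate 1 or 2 and 8 without *dis2*Δ replicate 2; the cause was not tested. Without snR30 the summed share was 160 CPM in wild-type, 199 in *ppn1*Δ, 173 for *swd22*Δ and 196 for *dis2*Δ. With 1 library of the strain left out it was 190 to 204, 248 to 256, 208 to 226 and 260 to 292 CPM. A minimum of 10 or 100 counts kept 45 or 38 loci in place of 43.

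Among the 36 changes of named loci that were not called, 9 changed sign in at least 1 setting, none of them called there. With the library total as the only scaling, which moved the median of all loci to 0.09 in *ppn1*Δ, snoU14 in *ppn1*Δ had 0.033, and under the replicate block snoZ16 in *dis2*Δ had -0.0004. With 1 library left out, the log2 fold change of snoZ16 in *dis2*Δ ranged from -0.14 to 0.16, and in *ppn1*Δ snoR38 ranged from -0.45 to 0.35, snoU14 from -0.087 to 0.045, sno52 from -0.23 to 0.0006, snu1 from -0.83 to 0.15 and snu5 from -0.63 to 0.23. In *swd22*Δ the range was -0.35 to 0.023 for snR95, -0.22 to 0.39 for snr79 and -0.27 to 0.16 for snu1. Of 163 other called changes that were followed, 67 lost the call in at least 1 setting and 0 changed direction.

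The labels give replicate numbers but do not say whether these pair the libraries, which were not treated as pairs. The correlation of the deviations of same-numbered libraries from their strain means was between -0.30 and 0.26, with 5 of 18 over 0.1. With the replicate block, 17, 17 and 19 members were called against wild-type and 0, 19 and 12 between mutants, and 1 called change of a named locus, snu32 in *dis2*Δ, was lost. At this depth the low loci limit the precision: at snu1, with 7.12 to 12.4 normalized counts in wild-type, the SE of the log2 fold change was 0.47 to 0.52.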
